A study of Mus musculus with 73 samples.

Results

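The data describe 10 genes in single sorted lung cells. These genes encode Fc receptors, C-type lectin and TREM receptors, their signalling adaptors and the kinase those adaptors recruit. The genes were Fcer1g, Tyrobp, Fcgr1, Fcgr2b, Fcgr3, Fcgr4, Trem2, Clec7a, Clec4n and Syk. They were taken by symbol, 10 of 23994 mouse gene rows, and all 10 rows were present. Values were given in 73 cells of 1 adult B6 mouse, 10 weeks of age, that carried green fluorescent protein under the Csf1r promoter (Csf1r-GFP). The left lung had been removed surgically (pneumonectomy), and the cells came from the right lobes 7 days later. The labels describe the sort as CD45+, CSF1R-GFP+ and F4/80+ and name Ly6G with no sign. No cells of an unoperated animal were analysed here, and every cell shares the operation, the genotype and the animal. Because cells of 1 mouse are not replicates, no test was made and no p-value is given.

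Fc receptors bind the constant part of antibodies. The activating receptors FcγRI (Fcgr1), FcγRIII (Fcgr3) and FcγRIV (Fcgr4) signal through the Fc receptor gamma chain encoded by Fcer1g, whose tyrosine motif (ITAM) is phosphorylated by Src family kinases and then recruits the kinase Syk. Tyrobp encodes DAP12, an adaptor with the same kind of motif that serves TREM2 and other receptors. FcγRIIB (Fcgr2b) carries an inhibitory motif in its own tail and restrains the activating receptors. Dectin-1 (Clec7a) binds fungal beta-glucans and holds a tyrosine motif of its own, whereas Dectin-2 (Clec4n) binds fungal mannans and signals through the gamma chain.

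The estimated mouse fragments per cell ran from 347003 to 3485929, and 1044 to 3745 genes per cell (median 2290) were detected at 1 or more FPKM, the fragments per kilobase of transcript scaled to the depth of the cell. The depth sets what a 0 means, so an undetected gene was not shown to be absent. Each share of cells is given with its 95% interval (exact Clopper-Pearson), and such an interval covers counting error alone. Cells 2, 38 and 54 held at least 3 endothelial markers at FPKM of 10 or more, and cell 2 held none of the 10 genes at FPKM of 1. Ptprc, Csf1r and Emr1, the genes behind the sort, were detected in 69, 65 and 41 cells.

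Fcgr2b and Fcgr3 share so much sequence that fragments from their common part could have been divided between the genes in the authors' counting. Of the 50-base words of the Fcgr2b coding sequence, 17.1% also occurred in Fcgr3, and 22.1% of those of Fcgr3 occurred in Fcgr2b. For 100-base words these shares were 4.78% and 6.27%. The other pairs of Fcγ receptor genes were 58.2% to 63.3% identical and shared 0 such words. The coding sequences of Fcgr2b and Fcgr3 were 96.5% identical over 509 aligned bases, and their longest identical run was 129 bases. The 150 coding bases around this run are shown because they mark where the values of these genes are uncertain. They come from the GENCODE M21 transcripts, at coding positions 268 to 417 of Fcgr2b and 253 to 402 of Fcgr3. Capitals mark the 2 bases that differ.
Fcgr2b: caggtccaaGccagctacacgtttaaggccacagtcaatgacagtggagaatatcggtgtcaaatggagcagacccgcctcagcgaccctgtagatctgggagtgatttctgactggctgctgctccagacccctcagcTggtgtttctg
Fcgr3: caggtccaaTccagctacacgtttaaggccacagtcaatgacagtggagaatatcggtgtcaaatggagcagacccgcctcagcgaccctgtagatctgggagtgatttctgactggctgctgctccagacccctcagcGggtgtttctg

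The Fcγ genes other than Fcgr1 and the gamma chain gene lie close together. On chromosome 1 of mm10, with GENCODE M21 gene limits, they are Fcgr2b at chr1:170958617-170976547, Fcgr4 at chr1:171018920-171029761, Fcgr3 at chr1:171051174-171064935 and Fcer1g at chr1:171229572-171234365. Fcgr2b shares exon bases with Gm38204 on the opposite strand. The labels do not describe the library kit as stranded, so fragments of that overlap cannot be told apart. Fcgr1 lies at chr3:96282909-96293969, Tyrobp at chr7:30413760-30417585, Syk at chr13:52583173-52648792 and Trem2 at chr17:48346401-48354147. Both lectin genes lie on chromosome 6, Clec4n at chr6:123229843-123247021 and Clec7a at chr6:129461591-129472779. GENCODE M21 calls Clec7a a polymorphic pseudogene and the other 9 genes protein-coding.

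Upstream sequence was available from RefSeq (GRCm38.p6) for 8 of the 10 genes and was searched for GAGGAA, a purine-rich core recognised by the myeloid factor PU.1, on both strands. Within 250 bases before a start site, 6 of the 8 genes (75%) held these letters at any of their start sites, against 25.9% of the 27025 genes of the table. With only the first start site that the table lists for a gene, these were 5 of 8 genes (62.5%) against 23.1%. The 6 were Fcgr1, Fcgr3, Fcgr4, Clec7a, Trem2 and Syk, and the 2 without were Fcgr2b and Fcer1g. The matches of Syk and Fcgr3 lay upstream of start sites inside the gene limits. A match describes the letters and not a binding site. The 100 bases before a start site are shown for 5 of the genes whose detection ran from few to nearly all cells, on the strand of the gene, with GAGGAA or its complement TTCCTC in capitals.
Fcgr1, chr3:96293970-96294069, minus strand: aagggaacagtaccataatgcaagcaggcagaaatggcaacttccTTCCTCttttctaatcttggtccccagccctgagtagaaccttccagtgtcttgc
Fcgr3, chr1:171059404-171059503, minus strand: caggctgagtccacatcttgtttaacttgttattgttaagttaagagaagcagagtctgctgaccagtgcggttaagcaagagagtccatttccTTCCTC
Fcgr4, chr1:171018826-171018925, plus strand: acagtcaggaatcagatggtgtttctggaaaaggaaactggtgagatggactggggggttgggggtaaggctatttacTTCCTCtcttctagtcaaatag
Clec7a, chr6:129472780-129472879, minus strand: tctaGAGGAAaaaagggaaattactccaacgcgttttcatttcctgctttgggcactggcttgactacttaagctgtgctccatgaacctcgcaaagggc
Fcer1g, chr1:171234350-171234449, minus strand: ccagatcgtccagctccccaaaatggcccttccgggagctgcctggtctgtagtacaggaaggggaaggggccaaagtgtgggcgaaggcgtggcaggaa

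The adaptors were near universal and the receptors were not. Fcer1g and Tyrobp were each detected in 72 of 73 cells (98.6%, 95% interval 92.6 to 99.97), and the cell that lacked them was cell 2 for both. Fcgr3 was detected in 63 cells (86.3%, 76.2 to 93.2) and Clec7a in 59 (80.8%, 69.9 to 89.1). Fcgr2b was detected in 48 cells (65.8%, 53.7 to 76.5), Syk in 46 (63.01%, 50.9 to 74.0) and Clec4n in 32 (43.8%, 32.2 to 55.9). Fcgr1, Trem2 and Fcgr4 were the least often found, in 30 (41.1%, 29.7 to 53.2), 24 (32.9%, 22.3 to 44.9) and 22 cells (30.1%, 19.9 to 42). Among the 6151 genes detected in at least 8 cells, the median gene was found in 19 cells, 20.9% were found in at least 37 cells and 1.95% in at least 72. Genes nearest to each adaptor in mean FPKM were found in a median of 73 cells. Of these, 20 of 75 were found in fewer cells than Fcer1g and 16 of 61 in fewer than Tyrobp. Of the 100 genes nearest to each receptor, 7 were found in fewer cells for Fcgr4, 16 for Fcgr2b and 18 for Trem2. These were 44 for Fcgr3, 54 for Fcgr1 and 66 for Clec7a. A cell held a median of 7 of the 10 genes. All 10 were found together in 3 cells, and apart from cell 2 no cell held fewer than 3.

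**Figure D1:**
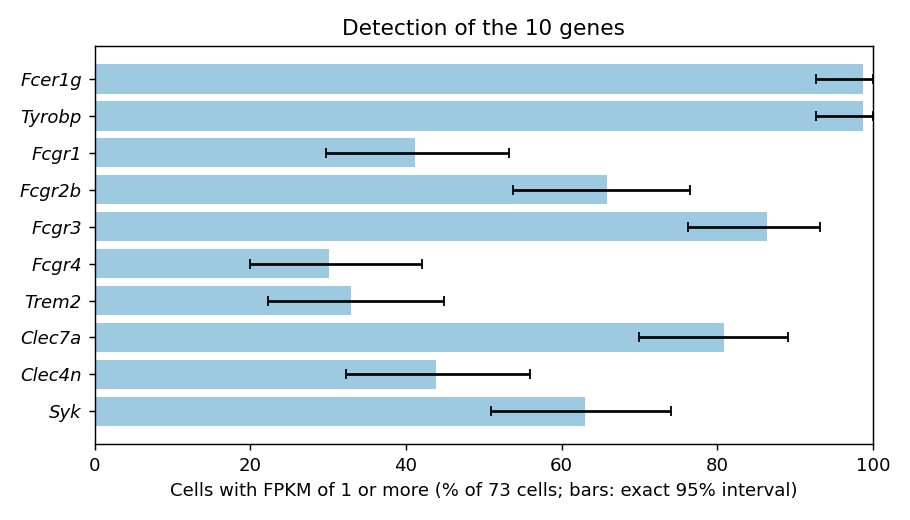
Share of the 73 cells with FPKM of 1 or more for each of the 10 genes, in percent, with exact 95% intervals as bars. The adaptors Fcer1g and Tyrobp reach 98.6%, and Fcgr4, Trem2 and Fcgr1 lie between 30.1% and 41.1%.

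Tyrobp was the most abundant of the 10 per kilobase. Its FPKM was 0 in cell 2, had a median of 2242 and was highest at 9600 in cell 34, with a mean of 2638 ± 1707 (SD over 73 cells). This placed it at rank 12 of all genes by mean. Fcer1g had a median FPKM of 1698 and a highest value of 5117 in cell 41, with a mean of 1868 ± 1228 and rank 26. Both varied little for their level, with a residual variability above that of 7.45% of the 6151 genes for Tyrobp and 6.19% for Fcer1g.

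The balance of the adaptors differed between single cells. The ratio of Fcer1g to Tyrobp FPKM had a median of 0.748 over 72 cells, with quartiles of 0.513 and 1.08, and it exceeded 1 in 22 cells. At the extremes, cell 79 had a ratio of 42.3 and cell 18 a ratio of 0.000265. Cell 18 held 7868 FPKM of Tyrobp beside 2.09 of Fcer1g, and with 1044 detected genes it was the cell with the fewest. The levels of the adaptors went together across the 73 cells with a Spearman rho of 0.51, and of 0.36 after the mouse FPKM of every cell was rescaled to 1 total. The cells share an animal and a scaling per cell, so both values are descriptions.

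**Figure D2:**
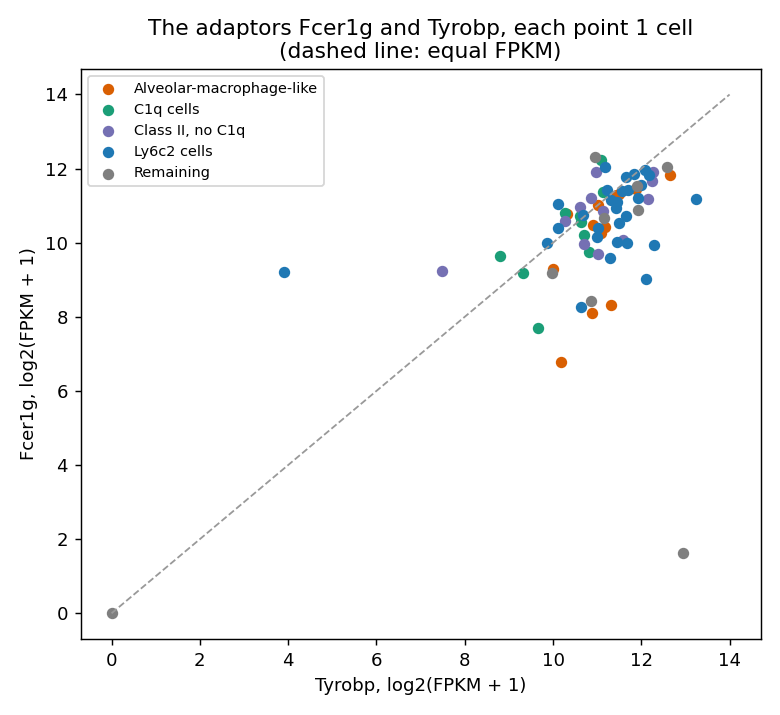
Fcer1g against Tyrobp in each of the 73 cells, both as log2(FPKM + 1), coloured by class, with a dashed line at equal FPKM. Most cells lie near and below the line, the median ratio being 0.748, and cell 18 (lower right), cell 79 (upper left) and cell 2 (at the origin) stand apart.

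Syk, the kinase downstream of both adaptors, was low but widely found. Its FPKM ran from 0 through a median of 4.62 to 138 in cell 37, with a mean of 19.5 ± 33.3 (SD over 73 cells). Of the 100 genes nearest to it in mean FPKM, 95 were found in fewer cells. A further 10 cells held a Syk value above 0 and below 1, more than for any other of the 10 genes, and 17 cells were at 0. The share of cells with Syk was 76.7% when any value above 0 counted and 42.5% at FPKM of 10 or more.

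Among the activating Fcγ receptors, Fcgr3 was the most abundant. Its FPKM had a median of 122.5 and a highest value of 2381 in cell 42, with a mean of 343 ± 449 (SD over 73 cells). Fcgr1, the high-affinity receptor for IgG, had a median of 0, a highest value of 434 in cell 76 and a mean of 34.3 ± 83.7. Fcgr4, a receptor for IgG2a and IgG2b in mice, had a median of 0, a highest value of 1460 in cell 41 and a mean of 67.02 ± 208. Cell 41 alone held 29.8% of the summed Fcgr4 FPKM. Over the cells that held each gene, the median FPKM was 284 for Fcgr3, 71.6 for Fcgr4 and 33.1 for Fcgr1.

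Fcgr2b, the inhibitory receptor, had a median FPKM of 17.8, a highest value of 3084 in cell 42 and a mean of 216 ± 442 (SD over 73 cells). Cell 42, which also led for Fcgr3, held 19.6% of the summed Fcgr2b FPKM. These are the genes with near-identical coding parts, and how fragments were divided between them in that cell was not tested.

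The lectin receptors were carried to their highest levels by single cells. Clec7a had a median FPKM of 77.3 and a highest value of 3821 in cell 67, which held 26.9% of the sum. Clec4n had a median of 0 and a highest value of 4397 in cell 6, 33.9% of the sum. Their means were 194 ± 467 and 178 ± 542 (SD over 73 cells). None of the 100 genes nearest to Clec4n in mean FPKM was found in fewer cells than its 32. Its residual variability exceeded that of 95.8% of the 6151 genes. Trem2, a receptor for lipids and apoptotic cells, had a median of 0, a highest value of 561 in cell 11 and a mean of 46.2 ± 117.

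The cells were placed in 5 classes without the use of the 10 genes, which were left out of the clustering. An alveolar-macrophage-like cluster of 13 cells had 9 alveolar macrophage markers among its 10 leading genes, among them Ear1, Ear2, Car4 and Chil3. Of the other 60 cells, 10 were C1q cells, with at least 2 of the complement genes C1qa, C1qb and C1qc at FPKM of 10 or more. A further 12 were class II cells without C1q, with at least 3 of H2-Aa, H2-Ab1, H2-Eb1 and Cd74 at that level. Ly6c2, a marker of classical monocytes, reached it in 29 of those left, and 9 cells remained. The remaining 9 were the shallowest class, with a median of 823839 mouse fragments and 1777 detected genes, against medians of 1155286 to 1641790 fragments and 2204 to 2685 genes in the other classes. Differences are given as the mean of log2(FPKM + 1) in a class minus that in all other cells, and a difference of at least 1 in size, which is 2-fold on that scale, is called past 2-fold. With 1 mouse these are descriptions of these cells.

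**Figure D3:**
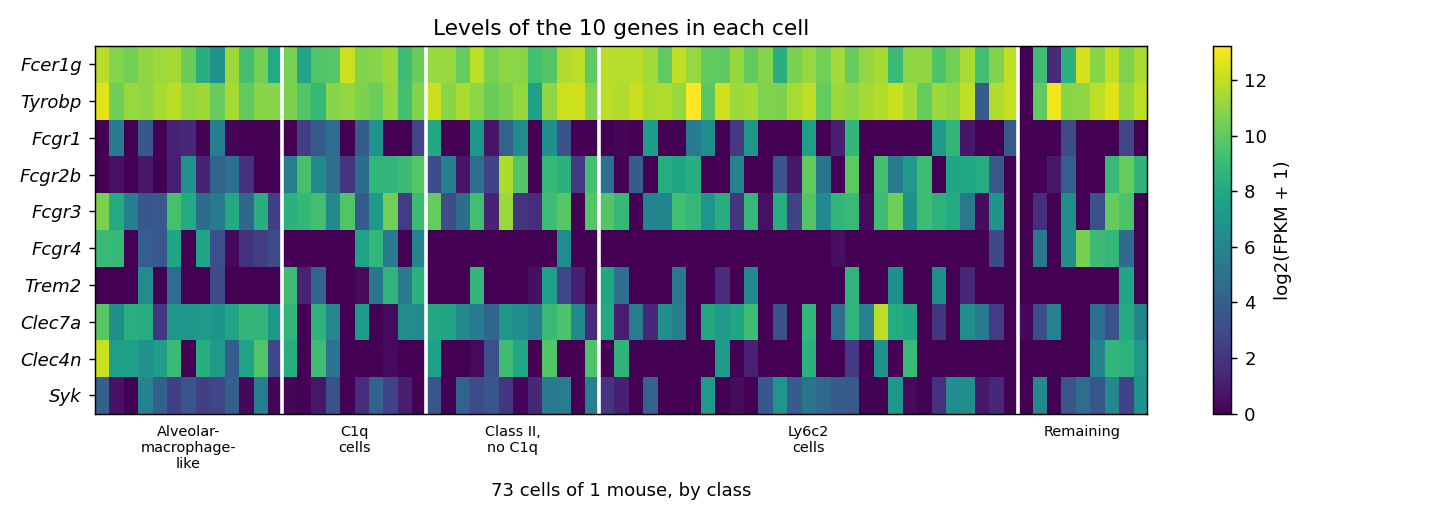
Levels of the 10 genes as log2(FPKM + 1) in each of the 73 cells, one column per cell, ordered by class with white lines between classes. The adaptor rows are filled in 72 cells, Fcgr4 is filled mainly in the alveolar-macrophage-like (10 of 13) and remaining cells (6 of 9), and Clec4n is filled in 12 of the 13 cells of the alveolar-macrophage-like class and in 20 of the other 60 cells.

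In the alveolar-macrophage-like cells, the lectin genes and Fcgr4 were higher than in all other cells and Fcgr2b was lower. These were 3 genes past 2-fold higher and 1 lower, beside a background of 17.7% of the 6151 genes higher and 8.81% lower. The median difference was 0.24 over the 10 genes and 0.10 over the 6151. Only 27 of the 6151 genes had a larger difference than Clec4n in this class.

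Among the 13 alveolar-macrophage-like cells Clec4n was found in 12, with a lowest FPKM of 0 in cell 35, a median of 174 and a highest value of 4397 in cell 6. Elsewhere it was detected in 3 of 10 C1q cells, 6 of 12 class II cells, 7 of 29 Ly6c2 cells and 4 of 9 remaining cells. The difference was 4.52 on the log2 scale, and the groups overlapped. Clec7a was found in 13 of 13 alveolar-macrophage-like cells, where its FPKM ran from 3.49 through a median of 136 to 890, and it was 2.52 higher than in all other cells. Every cell with Clec4n also held Clec7a, 32 of 32, and these were 54.2% of the 59 cells with Clec7a.

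Among the same 13 cells Fcgr4 was found in 10, with a median FPKM of 8.26 and a highest value of 521 in cell 6, and was 2.63 higher. Its values there were spread widely, since 4 cells lay between 224 and 521 and 6 between 2.88 and 14.4. Fcgr2b was detected in 6 of the 13, with a median of 0.800 and a highest value of 104 in cell 35, and its difference was -3.26. Fcgr3 was found in all 13 at a median of 51.8, and its difference of 0.31 was within 2-fold. As a share of the summed FPKM of the 4 Fcγ genes in a cell, the 3 activating receptors made a median of 99.9% in this class. The same share was 88.5% over the 69 cells with any of them.

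**Figure D4:**
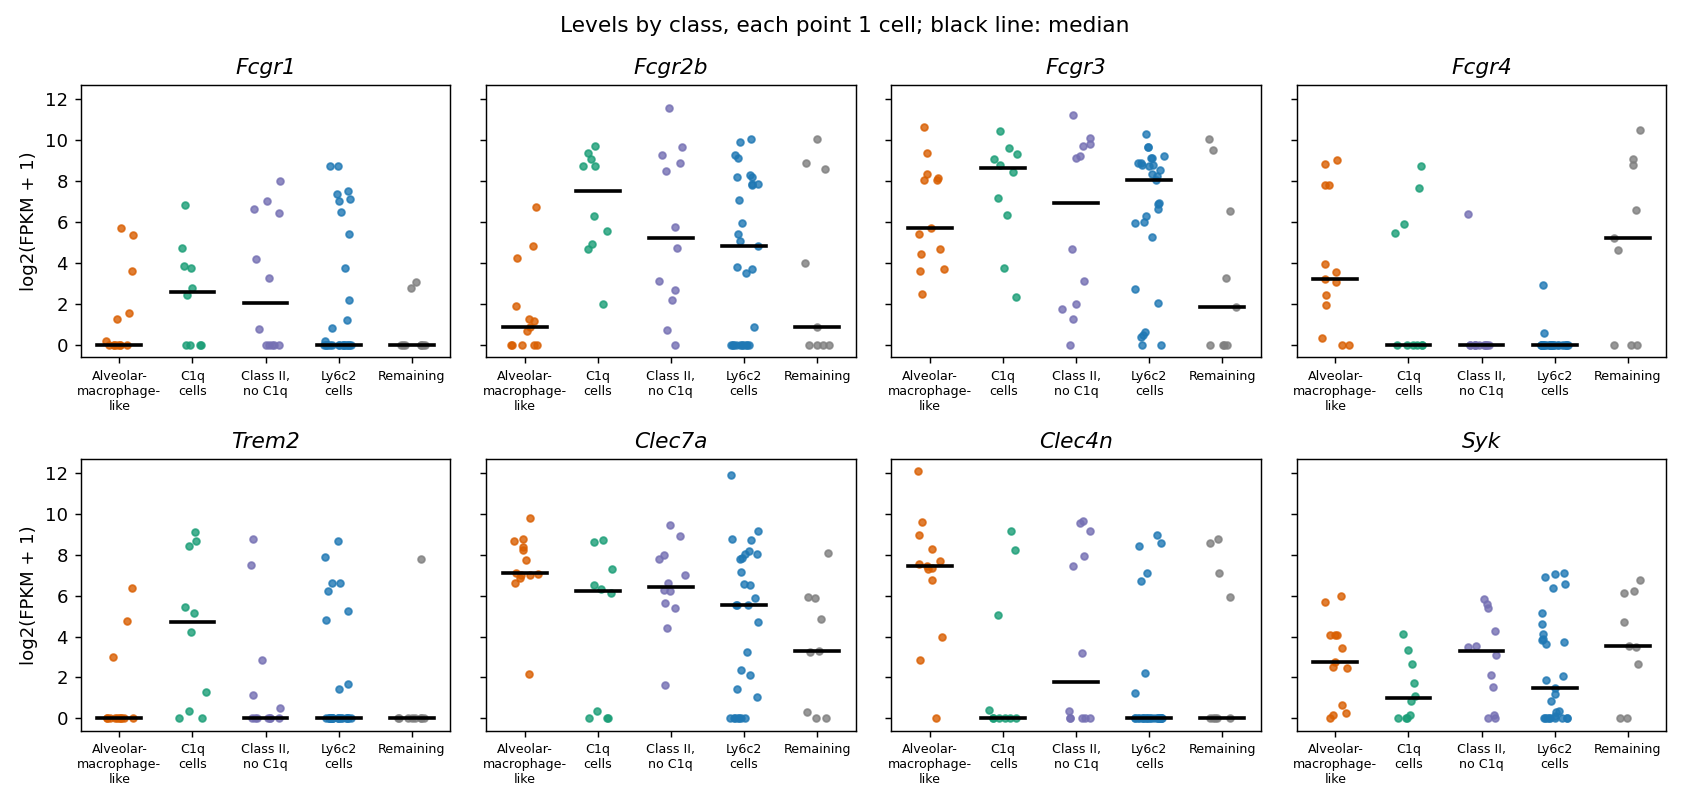
Levels of the 8 genes other than the adaptors as log2(FPKM + 1), by class, with each point a cell and the black line the class median. Fcgr4 medians are above 0 in the alveolar-macrophage-like and remaining cells and 0 in the other classes, and the Fcgr2b median is highest in the C1q cells (248 FPKM) and lowest in the alveolar-macrophage-like cells (0.800 FPKM).

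The C1q cells showed another set of receptors, with Fcgr2b, Trem2 and Fcgr3 well above the level of all other cells. Past 2-fold were 4 genes higher and 3 lower, beside a background of 12.5% of genes higher and 8.36% lower. The median difference was 0.18 over the 10 genes and 0.01 over the 6151. Fcgr2b was detected in 10 of 10 C1q cells, where its FPKM ran from 2.96 in cell 32 through a median of 248 to 854 in cell 94, and it was 2.96 higher. Its mean FPKM was 307 in C1q cells and 454 in class II cells, of whose sum cell 42 held 56.6%. Trem2 was detected in 7 of 10 C1q cells, with a median of 26.5 and a highest value of 561 in cell 11, and was 2.82 higher. Of the 6151 genes, 52 had a larger difference than Fcgr2b and 60 a larger one than Trem2.

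Fcgr3 was detected in all 10 C1q cells at a median FPKM of 400, with 4.005 in cell 84 and 1386 in cell 65 as the extremes, and was 1.65 higher. Its median was 295 in class II and 267 in Ly6c2 cells, and 51.8 and 2.59 in alveolar-macrophage-like and remaining cells. The mean FPKM of Fcgr3 was 440 in C1q and 537 in class II cells. Fcgr4 was past 2-fold at 1.08, but only 4 of the 10 cells held it, at 42.6, 59.3, 201 and 426 FPKM. Leaving out cell 38, 50, 65 or 94 brought Fcgr4 within 2-fold, and without the cells with endothelial markers its difference was 0.48. On the other side, Syk had a difference of -1.39, with 5 of 10 cells detecting it at a median of 0.970 over the class. Clec4n at -1.06 and Clec7a at -1.01 lay at the edge of 2-fold, and the removal of any of 26 and of 38 single cells moved them across it.

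Class II cells without C1q had more Fcgr2b, Clec7a and Fcgr1 and less Fcgr4 than all other cells. That made 3 genes higher and 1 lower, beside a background of 8.99% higher and 4.75% lower, with a median difference of 0.48 over the 10 genes and 0.01 over the 6151. Fcgr2b was detected in 10 of 12 cells, with a median FPKM of 38.8 and a highest value of 3084 in cell 42, and was 1.49 higher. Without cell 42 the difference was 0.95, within 2-fold. Clec7a was detected in 12 of 12, where its FPKM ran from 2.06 through a median of 87.1 to 704.5, and was 1.42 higher. Fcgr1 was detected in 6 of 12 and was 1.15 higher, and leaving out cell 13, 26, 48 or 64 brought it within 2-fold. Fcgr4 was found in 1 of the 12, cell 71, at 84.03 FPKM, and had a difference of -1.57.

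Ly6c2 cells lacked most of the Fcgr4 and Clec4n signal. No gene was past 2-fold higher and 2 were lower, beside a background of 7.36% higher and 5.95% lower, with a median difference of -0.10 over the 10 genes and -0.03 over the 6151. Fcgr4 was detected in 1 of 29 cells (3.45%, 0.0873 to 17.8), cell 89, at 6.62 FPKM, and had a difference of -2.86. Clec4n was detected in 7 of 29, with a highest FPKM of 497 in cell 69, and its difference was -2.84. Only 9 of the 6151 genes had a more negative difference than Clec4n in this class. Fcgr1 was detected in 11 of 29, and its values of 434 and 425 FPKM in 2 of them were the highest of any class. Clec7a was detected in 22 of 29, at a median of 45.4, with its series-wide highest value of 3821 in cell 67.

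The remaining cells had the highest Fcgr4 of any class and the lowest Fcgr3. Past 2-fold were 2 genes higher and 5 lower, beside a background of 4.32% higher and 20.1% lower. The median difference was -0.98 over the 10 genes and -0.40 over the 6151, so lower values were common among all genes in these shallow cells. Fcgr4 was detected in 6 of 9 cells, at 36.5, 95.6, 1460, 535, 439 and 23.4 FPKM in cells 10, 27, 41, 57, 59 and 83, and was at 0 in cells 2, 18 and 93. It was 3.58 higher than in all other cells, and 1 of the 6151 genes had a larger difference. Without the cells with endothelial markers the Fcgr4 difference was 4.28.

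Fcgr3 was detected in 5 of the 9 remaining cells, with a median FPKM of 2.59 and a highest value of 1065 in cell 59, and its difference was -3.01. The differences of Clec7a, Fcgr1 and Trem2 were -2.003, -1.62 and -1.11. Each held past 2-fold under 9 of 10 alternatives of the processing, with -0.71, -0.93 and -0.81 as the smallest in size. Fcgr1 was detected in 2 of the 9 cells and Trem2 in 1, cell 83. The difference of Fcer1g was -2.005, but without cell 2 it was -0.94. Tyrobp had a difference of -0.72 with cell 2 and of 0.56 without it. Syk was detected in 7 of 9, with a median of 10.5 and a highest value of 108 in cell 93, and was 1.28 higher. Leaving out cell 10, 59 or 93 brought Syk within 2-fold. It held past 2-fold under 9 of 10 alternatives, with 0.34 as the lowest value.

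Markers of non-classical monocytes, the patrolling monocytes of vessels, were also found in the remaining class. All 10 of the listed genes were detected in at least 1 of the 9 cells, a cell held a median of 5, and the summed FPKM of the list ran from 24.3 through 280 to 2035. In the other classes the median sum ran from 216 to 1317 FPKM. The median number of these genes in a cell was 3 to 4 in the other classes, and 9 of the 10 were also detected among the C1q and among the class II cells. Cd300e was detected in 4 of the 9 and in 0 of the other 64 cells, where 3 cells would be a share of 4.69%. Ace was detected in 5 of the 9 and in 3 of the others, Eno3 in 3 and 3, Spn in 4 and 10, and Pou2f2 in 5 and 15. Ear2 was detected in 5 of the 9 and in 23 of the other 64 cells, Itgal in 5 and 29, Nr4a1 in 8 and 47, Cx3cr1 in 3 and 28, and Cebpb in 8 and 62. Ace was found in 3 of the 6 remaining cells with Fcgr4 and in 2 of the 3 without it, and Cd300e in 3 of 6 and 1 of 3, counts examined after the values were seen. The part of such cells in the Fcgr4 level was not tested.

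**Figure D5:**
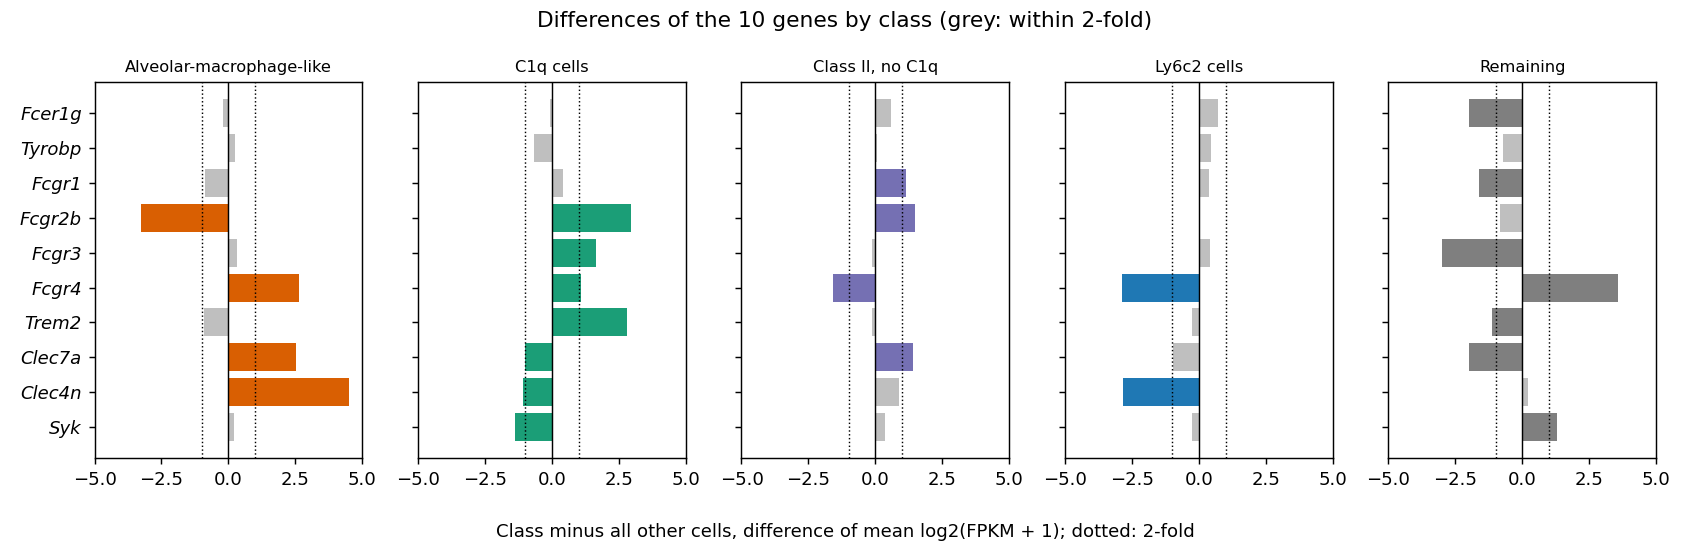
Mean log2(FPKM + 1) in each class minus that in all other cells for the 10 genes, with dotted lines at 2-fold and grey bars for differences within 2-fold. Fcgr4 is higher in the alveolar-macrophage-like (2.63) and remaining cells (3.58) and lower in the Ly6c2 (-2.86) and class II cells (-1.57), and Fcgr2b runs from -3.26 in alveolar-macrophage-like to 2.96 in C1q cells.

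Over all classes, the order of Fcgr4 by mean log2(FPKM + 1) was remaining, alveolar-macrophage-like, C1q, class II and Ly6c2 cells, at 4.98 ± 4.17, 4.001 ± 3.32, 2.78 ± 3.69, 0.53 ± 1.85 and 0.12 ± 0.55 (SD over cells). Neighbours in that order differed by less than the larger of their SDs. For Fcgr2b the order was C1q, class II, Ly6c2, remaining and alveolar-macrophage-like cells, at 6.90 ± 2.60, 5.59 ± 3.90, 4.37 ± 3.81, 3.61 ± 4.39 and 1.66 ± 2.204. Here too each step was smaller than the larger SD. The adaptors were within 2-fold of all other cells in every class, apart from Fcer1g in the remaining cells with cell 2 included. Tyrobp in the remaining cells passed 2-fold lower when cell 18 or cell 59 was left out, with -1.06 as the lowest value, and reached -1.09 with a pseudocount of 0.1. Without the cells that held markers of other lineages its difference was 0.50.

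Every cell with any of the 7 receptor genes also held Fcer1g and Tyrobp. This follows from their presence in 72 of 73 cells, since the cell without them held none of the 10 genes. Syk was found in 43 of 63 cells with Fcgr3 (68.3%), in 18 of 22 with Fcgr4 (81.8%) and in 21 of 30 with Fcgr1 (70%). For the lectins, Syk was found in 38 of 59 cells with Clec7a (64.4%) and in 21 of 32 with Clec4n (65.6%), and for Trem2 in 16 of 24 (66.7%). The share of Syk among all cells was 63.01%.

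The inhibitory receptor was found beside an activating one about as often as activating receptors were found in any cell, in 44 of 48 cells (91.7%) against 65 of 73 (89.04%). Fcgr2b and Fcgr3 were detected together in 44 cells (60.3%, 48.1 to 71.5), which were 91.7% of the cells with Fcgr2b and 69.8% of those with Fcgr3. Of the 73 cells, 44 held Fcgr2b with at least 1 activating Fcγ receptor, 21 held an activating receptor without it, 4 held Fcgr2b alone and 4 held none. C1q cells held both kinds in 10 of 10 cells. Of these, cell 32 held 2.96 FPKM of Fcgr2b beside 800 of Fcgr3, and cell 84 held 4.005 of Fcgr3 beside 543 of Fcgr2b. How fragments of the near-identical coding parts of Fcgr2b and Fcgr3 were divided was not tested, so their joint detection carries that uncertainty. Alveolar-macrophage-like cells held both in 6 and an activating receptor alone in 7 of 13. The most frequent combinations of the 4 genes were Fcgr2b with Fcgr3 in 17 cells and these with Fcgr1 in 14, and all 4 were found in 8 cells.

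Within cells with any Fcγ receptor, the activating share of the summed FPKM had a median of 58.02% in class II cells and 75.4% in Ly6c2 cells. It was 77.9% in C1q and 92.8% in remaining cells. These shares also depend on how fragments were divided between Fcgr2b and Fcgr3, which was not tested. The share spanned 0% to 100% in class II, Ly6c2 and remaining cells, so single cells in each lay at both ends. Of the 7 receptor genes, C1q cells held a median of 5, class II cells 4.5, alveolar-macrophage-like cells 4, and Ly6c2 and remaining cells 3.

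Most pairs of the 10 genes had a low rho across cells, and the highest pairs ranked high among all genes. Over the 45 pairs, Spearman's rho across the 73 cells had a median of 0.09 and ran from -0.15 to 0.51, and 5 pairs reached 0.3. After Fcer1g with Tyrobp came Clec7a with Clec4n at 0.49, Fcgr2b with Fcgr3 at 0.40, Fcgr3 with Trem2 at 0.38 and Fcgr3 with Clec4n at 0.37. For Clec7a with Clec4n, rho was 0.48 within the 13 alveolar-macrophage-like cells, 0.55 within the 10 C1q cells, -0.01 within the 12 class II cells, 0.49 within the 29 Ly6c2 cells and 0.64 within the 9 remaining cells. For Fcgr2b with Fcgr3 it was 0.01 within the alveolar-macrophage-like cells, 0.07 within the C1q, 0.55 within the class II, 0.32 within the Ly6c2 and 0.56 within the 9 remaining cells. In the same order of classes, rho was -0.08, 0.15, -0.04, 0.56 and 0.43 for Fcgr3 with Trem2. For Fcgr3 with Clec4n the values were 0.54, 0.25, 0.41, 0.37 and 0.61. Depth moved with several genes, since rho with mouse fragments per cell was 0.50 for Fcgr3, 0.41 for Fcgr1 and 0.37 for Trem2, against 0.14 for Fcer1g, 0.04 for Tyrobp and -0.25 for Fcgr4. How much of each pair's rho depth accounts for was not tested, nor was the part of divided fragments in that of Fcgr2b with Fcgr3.

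The genes most like each of the 10, at most 3 for each, were the highest by rho over the 73 cells among the 6151, a choice that always returns high values. Tyrobp was nearest to Lyz2 at 0.61, Gsr at 0.56 and Alox5ap at 0.53. For Fcer1g, Tyrobp at 0.51 and Ptprc at 0.47 were among the nearest. For Syk the nearest were Leprotl1 at 0.45, Mgat2 at 0.45 and Hcst at 0.42. The adaptors thus paired with broadly found genes, as Lyz2, Alox5ap and Ptprc were detected in 72, 71 and 69 cells.

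Fcgr1 was nearest to Snx2 at 0.52, Ube2l3 at 0.50 and Hmga1 at 0.48, the last found in 8 cells. Fcgr2b was nearest to Sdc4 at 0.60, C3ar1 at 0.51 and P2ry6 at 0.49. For Fcgr3 the nearest were Lilrb4 at 0.53, Npc2 at 0.52 and Sept2 at 0.49. Fcgr4 was nearest to Pag1 at 0.52, Slc23a2 at 0.47 and Atp6v0d2 at 0.45, found in 13, 10 and 16 cells. Trem2 was nearest to Spast at 0.49, Ccl2 at 0.48 and Gla at 0.46. Clec7a was nearest to Tfec at 0.52, Ppp4c at 0.51 and Clec4n at 0.49, and Clec4n to Hadha at 0.59, Rars at 0.56 and Atp6v0d2 at 0.54. Atp6v0d2, named for both Fcgr4 and Clec4n, was among the leading genes of the alveolar-macrophage-like cluster.

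Other genes of the pathway were described by 6 lists, with 77 of 78 listed genes in the table and Sirpb1c the one without a row. Over the whole table, 6151 of 23994 genes were found in at least 8 cells and 1285 in at least 37. Of the 7 Src family kinases, which phosphorylate the tyrosine motifs, 4 were found in at least 8 cells and 2 in at least 37. Lyn was detected in 67 cells with a mean of 145 ± 149 FPKM and Fgr in 47 with 51.03 ± 105. Fgr was detected in 3 of 10 C1q cells, with a difference of -2.62, and in 21 of 29 Ly6c2 cells, where it was 1.58 higher.

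Of 20 genes acting downstream of Syk, 15 were found in at least 8 cells and 4 in at least 37. The small GTPases Rac1 and Rac2 were detected in 66 and 58 cells, with means of 91.8 ± 121 and 138 ± 174 FPKM, and the kinase Prkcd in 48 with 59.6 ± 139. In the alveolar-macrophage-like cells 3 of the 15 were past 2-fold higher, beside 17.7% of all genes, and 4 were lower, beside 8.81%. Rac2 was among the lower, with a difference of -2.60, and it was 2.21 higher in Ly6c2 cells. Rac1, by contrast, was within 2-fold in every class.

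The inhibitory arm was also present. Of 10 phosphatases and docking proteins, 8 were found in at least 8 cells and 1 in at least 37. Ptpn6, which encodes the phosphatase SHP-1, was detected in 53 cells with a mean of 91.1 ± 160 FPKM, and had a difference of -1.65 in the remaining cells. Dok2 and Dok3 were detected in 11 and 26 cells, with means of 35.4 ± 156 and 22.8 ± 81.9 FPKM. Of the 14 inhibitory receptors, 13 were found in at least 8 cells and 7 in at least 37, the highest count of the 6 lists.

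Lilrb4 was the most abundant inhibitory receptor, detected in 69 cells with a mean of 497 ± 640 FPKM. It was found in 5 of the 9 remaining cells with a difference of -4.36, the most negative of its list in any class, beside -3.01 for Fcgr3. Sirpa, the receptor for CD47, was detected in 55 cells (108 ± 162 FPKM) and was 2.92 higher in the alveolar-macrophage-like cells, 13 of 13 of which held it. Pirb, a receptor for class I molecules, was detected in 58 cells (87.9 ± 113 FPKM) with a difference of -2.78 in the same cells and of 2.08 in Ly6c2 cells. Of the 13 inhibitory receptors, the alveolar-macrophage-like class had 2 past 2-fold higher and 4 lower, beside 17.7% and 8.81% of all genes.

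Of 17 other adaptor-coupled receptors in the table, 14 were found in at least 8 cells and 3 in at least 37. Clec4e (Mincle), which binds mycobacterial glycolipids and pairs with the gamma chain, was detected in 53 cells with a mean of 185 ± 389 FPKM. Its difference was 2.40 in Ly6c2 cells and -2.88 in C1q cells, whereas that of Clec4n, another Dectin-2 family receptor, was -2.84 in Ly6c2 cells. Clec4d was detected in 33 cells (77.6 ± 191 FPKM) and was 1.46 higher in class II cells. Cd300ld was detected in 25 cells (60.9 ± 256 FPKM) and was 2.73 higher in the remaining cells. In Ly6c2 cells 5 of the 14 were past 2-fold higher and 1 was lower, beside 7.36% and 5.95% of all genes. In C1q cells 0 were higher and 5 lower, beside 12.5% and 8.36% of all genes.

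Fc receptors outside the 10 genes were scarce. Of 9 such genes, 5 were found in any cell and 1, Fcgrt, in at least 8. Fcgrt, the neonatal Fc receptor that recycles IgG, was detected in 25 cells with a mean of 44.7 ± 128 FPKM, and was 1.82 higher in C1q cells. Fcrls was detected in 7 cells, of which 6 were C1q cells and 1 a class II cell, with a highest value of 437 FPKM. Pigr was detected in 7 cells, of which 5 were alveolar-macrophage-like, with a mean of 2.71 ± 18.7 FPKM.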

How the data were processed

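Single cells were captured on a Fluidigm C1, and polyadenylated RNA was amplified with SMARTer chemistry and prepared with Nextera XT, per the labels' protocols. Levels are those of the FPKM table, in which the authors gave fragments per kilobase of transcript with a scaling for each cell. A companion table deposited with it holds fragment numbers that their tools had already divided by a factor for each cell, so its unit is a signal and not a raw count. The submitters' processing notes name CASAVA 1.8, TopHat2 2.1.0, Cufflinks 2.2.1 and also Cuffnorm, and the build mm10. Which annotation was used, and whether cells were filtered, is not given in the sources used here.

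Each column was matched to its cell through the cell number in the label, and 0 columns were left over. Of 100696 low values in the signal table, 99.6% lay within 0.1 of a whole step of their cell, so fragments were estimated from that step. Spike-in rows (100), with a median share of 36.6%, were removed, but the FPKM were not rescaled afterwards except in an alternative. Differences in that share between cells thus remain in the main comparisons. The summed mouse FPKM of a cell ran from 168983 to 691698. The median ratio of mouse to spike-in fragments was 0.772 in the remaining cells and 1.66 to 2.08 in the other classes. A gene was detected at FPKM of 1 or more. For clustering, 1000 variable genes detected in at least 8 cells, without the 10 genes and the pathway lists, were taken as log2(FPKM + 1), scaled and reduced to 10 components. Ward clusters were cut at the highest mean silhouette with at least 5 cells each, and were named from at least 3 markers among 10 leading genes. The cut gave 3 clusters, and those of 10 and 50 cells stayed unnamed. No doublet caller was run. The 10 genes, the classes, the lists and the rules for named genes (the 10 genes, the 3 most abundant of each list and the 3 most alike of each gene) were chosen with earlier results of these data known. Choices made after values were seen are stated beside them. A few genes that these rules name are not reported here.

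Alternatives were other thresholds, pseudocounts, scalings, depths, clusterings and sets of cells. Coding and gene coordinates came from GENCODE M21 and promoters from RefSeq GRCm38.p6. Protein motifs were not analysed here. Python 3.11.15, numpy 2.4.6, pandas 2.3.3, scipy 1.17.1, scikit-learn 1.9.0, Biopython 1.88 and matplotlib 3.10.9 were used.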

Additional observations from a re-analysis of the deposited data

How the results depend on the processing

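Of the 24 gene and class pairs past 2-fold, 15 stayed past it in the same direction under all 10 alternatives and 9 did not under at least 1. Not every alternative could move every pair, as described below. The number of pairs past 2-fold was 21 at the lowest and 25 at the highest when each cell was left out in turn. It was 24 with every cell thinned to 347003 fragments and 31 with a pseudocount of 0.1. Between the alveolar-macrophage-like cells and all other cells, 1628 genes were past 2-fold, and 2836 with a pseudocount of 0.1. Cells with both Fcgr2b and Fcgr3 were 60.3% of the total and 46.6% at FPKM of 10 or more. The rho of Fcer1g with Tyrobp was 0.51, and 0.36 with mouse FPKM rescaled to 1 total. Pathway list genes in at least 37 cells numbered 17 of 77, and 10 at FPKM of 10 or more. The ratio of Fcer1g to Tyrobp had a median of 0.748 in FPKM, and 0.916 from the signal table. The signal is not given per kilobase, so these ratios are unlike measures. The causes of the other changes were not tested. The alveolar-macrophage-like cells numbered 13 in the main clustering, 13 with k-means, 8 with fewer and 12 with more variable genes, and 14 with pathway genes kept in. The cut into 2 clusters gave the same 13 cells as the main clustering, so it could move no pair. Every other clustering left all C1q differences unchanged, so these alternatives could not move a C1q pair. The class II pairs also kept the same values with fewer and with more variable genes, so their stability there carries no information. With marker transcripts of the classes taken at FPKM of 1, Ly6c2 cells numbered 31 and remaining cells 7. The 10 C1q and 12 class II cells were the same at that level, so their pairs could not move there. Among the 9 pairs, Fcgr1 in class II cells was 0.75 with k-means, Clec7a in C1q cells -0.93 after rescaling and Fcer1g in the remaining cells -0.70 with those transcripts at FPKM of 1. The 9 also held Clec7a, Fcgr1, Trem2 and Syk in the remaining cells, as given above. None of the 24 pairs changed direction. Leaving out each cell and keeping the pathway genes in the clustering were chosen after seeing the data. No paired analysis was possible because the series has 1 group from 1 mouse.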
